A study of Drosophila melanogaster with 4 samples.

Results

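Polycomb group, Trithorax group and related chromatin genes were examined in the nuclear RNA of Drosophila photoreceptors. The rule took genes by symbol: 42 genes whose products write, remove or read histone marks, or move nucleosomes. All 42 were found among the 13929 genes of the count table, and all 42 had enough reads to be tested, with 7029 genes tested in all. Groups of male flies aged to Day 30 were compared, siTop3β and siControl, with 2 libraries each, to ask how nuclear transcripts differ when the RNA and DNA topoisomerase Top3β is targeted by RNAi. In siTop3β flies the TRiP.JF01282 construct against Top3β was expressed. In siControl flies the construct was UAS-mCherry-RNAi, which targets a reporter with no counterpart in the fly genome. Both groups carried UAS-Dcr-2 and w[1118], together with UAS-GFP-Msp300KASH and rh1-GAL4, and were collected at ZT 6. Rh1-Gal4 is active in the outer photoreceptors, R1 to R6, so the RNAi and the GFP tag on the nuclear envelope are limited to these cells. Tagged nuclei were captured from head homogenate by nuclei immuno-enrichment, and each library pools many flies of 1 RNAi line.

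Polycomb group proteins keep genes silent through cell divisions and in differentiated cells. Polycomb repressive complex 2 (PRC2) methylates histone H3 at K27, PRC1 binds this mark and compacts chromatin, and PhoRC binds DNA at Polycomb response elements. Trithorax group proteins oppose this silencing: some methylate H3 at K4 or K36, and others are ATP-driven remodelers that slide or eject nucleosomes. The best known targets of both groups are the Hox genes, which set segment identity in the embryo.

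Library totals ran from 3239201 to 4267208 counts, and a floor of 3 counts stood for 0.697 to 0.871 CPM, the unit that scales counts by TMM-adjusted library size. The 42 genes took 0.606% to 0.630% of the counts in each library. Markers of outer photoreceptors summed to 76769 and 85590 CPM in siTop3β and to 84791 and 87984 CPM in siControl. All 14 were tested, 11 had negative log2 fold changes and 0 were called. Glial markers summed to 175 and 184 CPM in siTop3β and to 204.8 and 199 CPM in siControl, with all 6 tested genes negative and 0 called. The untested glial marker wrapper went the other way, with 13 and 8 counts in siTop3β and 3 and 3 in siControl. nrv2 had the most glial reads and overlapped between the groups (81.6 and 105 CPM in siTop3β, 118 and 98.7 CPM in siControl). Among markers of R7 and R8, pros was lower in siTop3β (180 and 164 CPM in siTop3β, 291 and 264 CPM in siControl, adjusted p = 0.0041 by edgeR), and the other 5 summed to 83.3 and 87.6 CPM in siTop3β and to 87.5 and 97.6 CPM in siControl, with Rh6 higher in both siTop3β libraries but not called. Among fat body markers, apolpp was lower in siTop3β (551 and 635 CPM in siTop3β, 884 and 925 CPM in siControl, adjusted p = 0.023 by edgeR), and the other 5 summed to 441 and 401 CPM in siTop3β and to 426 and 490 CPM in siControl. Markers of cone and pigment cells without w, which carried most of their reads, summed to 108 and 86.5 CPM in siTop3β and to 94.3 and 101 CPM in siControl. Summed markers of other neurons (122 to 166 CPM in siTop3β, 156 to 163 CPM in siControl) and muscle (1524 to 1838 CPM in siTop3β, 1609.7 to 1742 CPM in siControl) overlapped between the groups. Tm1 carried most of the muscle reads (1377 and 1659 CPM in siTop3β, 1534 and 1578 CPM in siControl), so the sum says little about the other muscle markers. bt had 41.2 and 42.5 CPM in siTop3β and 11.6 and 42.6 CPM in siControl. Mhc had 22.3 and 40.9 CPM in siTop3β and 19.0 and 41.2 CPM in siControl. For bt, Mhc and sls the lowest value was that of siControl replicate 1, whereas for Tm1 it was that of siTop3β replicate 1. The muscle marker sls was higher in both siTop3β libraries but not called (74.3 and 87.3 CPM in siTop3β, 39.9 and 69.5 CPM in siControl, adjusted p = 0.381 by edgeR). siTop3β replicate 1 stood apart from the other libraries: it had the smallest total and a count on 12922 genes, against 10104 to 10537 in the other libraries. Germ cell markers had 38 and 7 counts in siTop3β and 14 and 8 in siControl. The targeted transcript itself, Top3β, had 57 and 71 counts in the libraries labelled siTop3β and 70 and 57 in siControl. Its log2 fold change was 0.13 with a standard error (SE) of 0.25 (adjusted p = 0.957 by edgeR), and the 95% interval of its siTop3β level ran from 76.4% to 156% of siControl. A lower level of the target was therefore not seen in this nuclear RNA, and every direction given here rests on the libraries' labels. RNA outside the nucleus was not measured in these libraries. The paper reports a large reduction of the Top3β transcript by qPCR in larvae with ubiquitous RNAi, a different tissue and driver. The study's general methods describe independent biological replicates, each a pool of flies, but neither they nor the labels say so of these 2 libraries a group in particular, so p-values measure the spread between these libraries. In bulk nuclear RNA, fewer nuclei of a type and less RNA per nucleus cannot be told apart.

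None of the 42 genes differed between siTop3β and siControl at an adjusted p under 0.05. Among all tested genes, edgeR's quasi-likelihood test called 85 of 7029 (1.21%), of which 58 were lower in siTop3β (0.825%) and 27 were higher (0.384%). Before adjustment, 4 of the 42 genes (9.52%) had a p under 0.05, a share close to the 9.09% of all tested genes. These 4 genes were pho, Kdm4B, Sirt1 and HDAC4, each with the lower values in siTop3β. DESeq2 called 0 of the 37 members for which it gave an adjusted p, against 51 of 4225 genes (1.21%). With DESeq2, 3 of the 42 had a p under 0.05 before adjustment, against 295 of the 13144 genes it ran (2.24%). Those 13144 include genes with too few reads for the edgeR test. All 3 lay among the 21 members of higher level, split at their median. Above that level, 178 of 1741 edgeR-tested genes were under 0.05 with DESeq2 and lower in siTop3β, and 13 were higher. The median log2 fold change of the 42 genes was 0.0066, against 0.024 for all tested genes, with 23 genes positive and 19 negative. Individual values ran from -0.47 for pho to 0.48 for Su(var)3-3, an H3K4 demethylase.

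**Figure D1:**
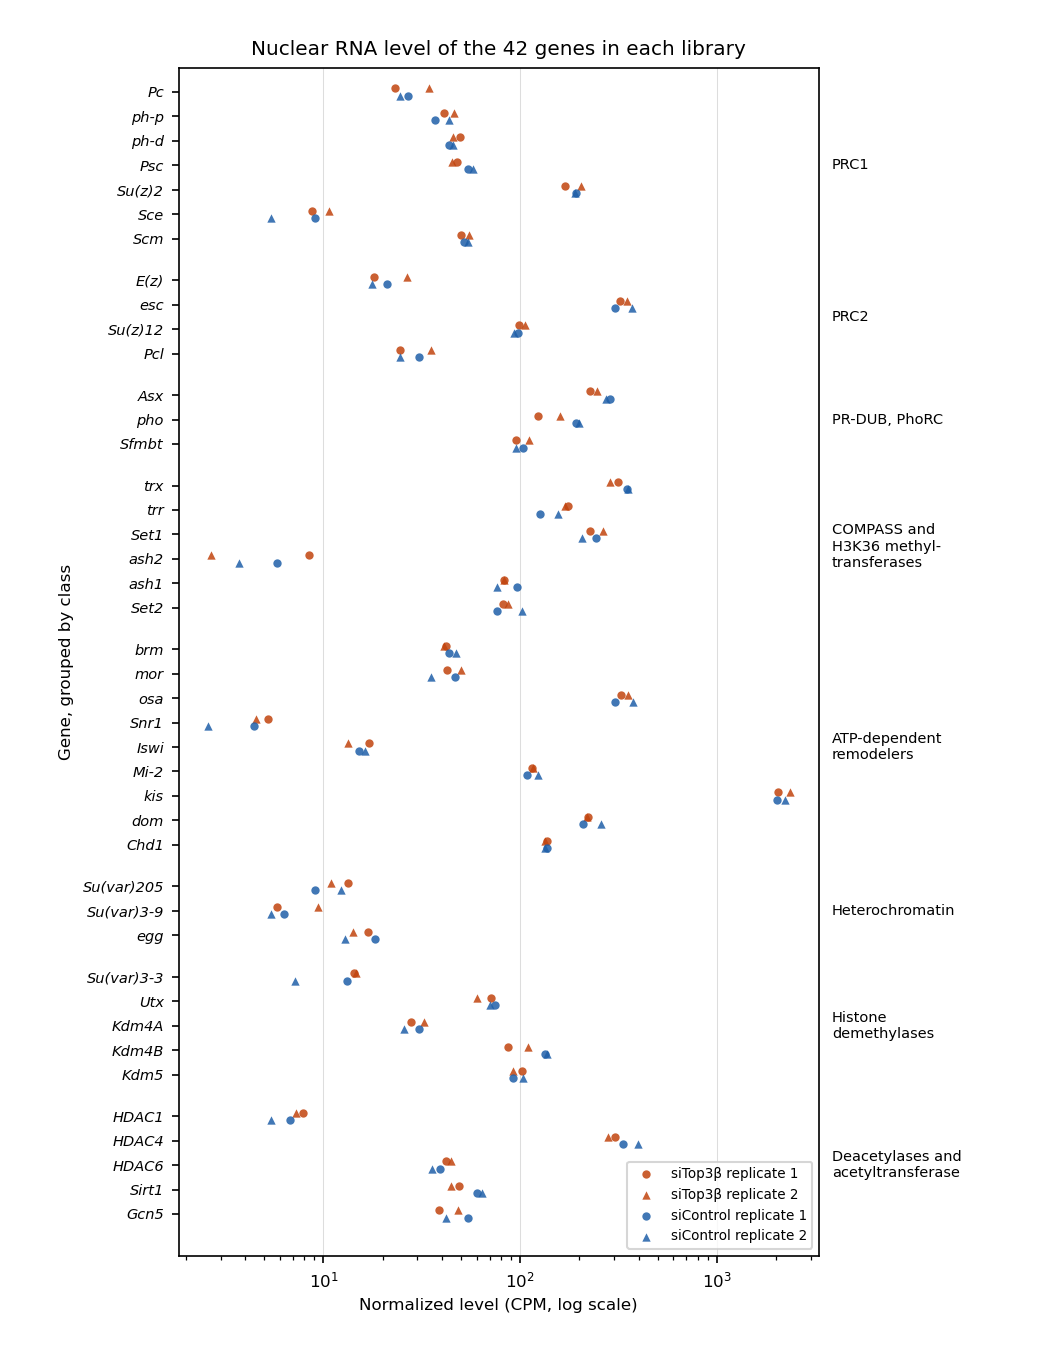
Normalized level (CPM, log axis) of each of the 42 genes, grouped by class, in siTop3β (red) and siControl (blue), with replicate 1 as circles and replicate 2 as triangles. The 4 points of a gene lie close together for most genes, while levels differ between genes from 2.58 CPM (Snr1 in siControl) to 2350.4 CPM (kis in siTop3β).

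Both siTop3β libraries lay below both siControl libraries for 8 of the 42 genes (19.0%), and the same held for 19.0% of all tested genes. They lay above both siControl libraries for 6 genes (14.3%), against 19.6% of all tested genes. The other 28 genes overlapped between the groups. The size of a difference was set beside the spread between replicates, though a difference of group means varies less than one between single libraries. The absolute log2 fold change had a median of 0.13 over the 42 genes, while the 2 replicates of a group differed by a median of 0.16 on the log2 scale in siTop3β and 0.22 in siControl. For 10 of the 42 genes the difference between the groups exceeded both replicate differences. This count was not made over all tested genes, so it cannot show whether these genes stand out.

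Intervals of single genes, not adjusted for the number of genes, describe how large a difference between these labelled groups could be. Estimates also moved when a library was left out, as given below. The 95% interval of the fold change lay inside a 2-fold change in either direction for 36 of the 42 genes, and inside 1.5-fold for 27 of them. Over all tested genes, 59.6% of the intervals lay inside 2-fold and 28.6% inside 1.5-fold. The 42 genes had more reads than most, with a median level of 5.76 log2 CPM against 3.87 over all tested genes. The intervals that crossed 2-fold belonged to Sce, ash2, Snr1, Su(var)3-9, Su(var)3-3 and HDAC1, which had 9 to 57 counts a library.

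**Figure D2:**
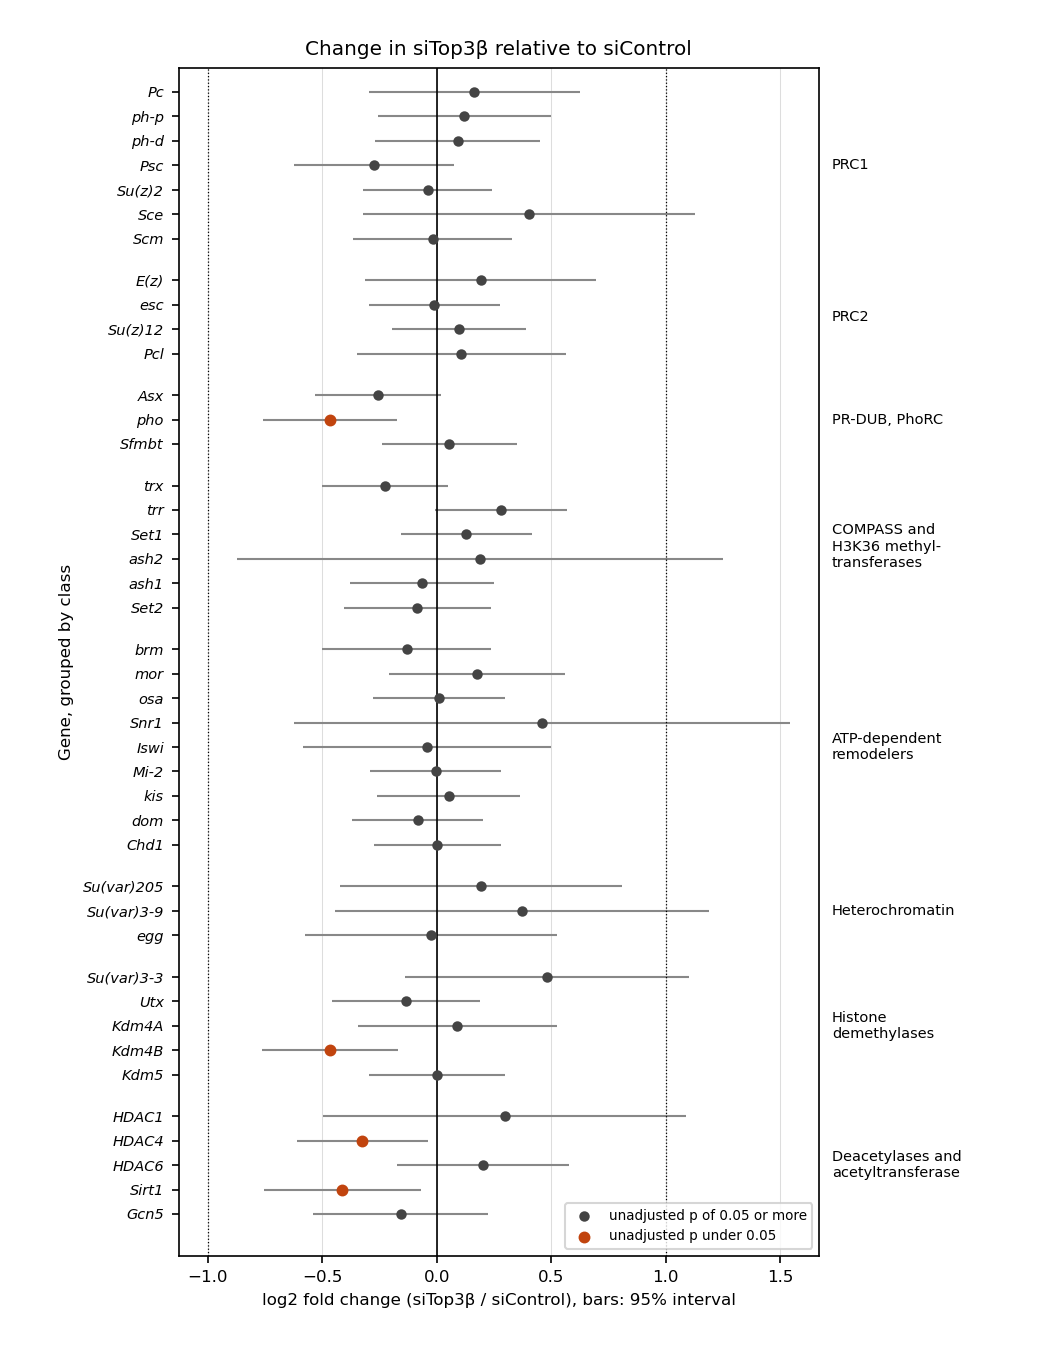
Log2 fold change of each gene (siTop3β over siControl) with its 95% interval from edgeR, grouped by class, with dotted lines at 2-fold. The intervals of pho, Kdm4B, HDAC4 and Sirt1 (red) lie below 0 before adjustment, the other 38 include 0, and 6 cross a dotted line.

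Per kilobase of exon, these genes ran from the 17.8 to the 98.1 percentile of tested genes in siControl. The level of esc, the WD40 subunit that PRC2 needs for its activity, was highest at 196 CPM per exonic kb in siTop3β and 198 in siControl, above 98.1% of tested genes. Next in siControl came kis with 114 in siTop3β and 110.1 CPM per exonic kb in siControl, then pho with 59.5 and 82.4, and HDAC4 with 40.5 and 50.7. In siTop3β, Set1 with 44.1 CPM per exonic kb stood above HDAC4. At the other end stood ash2, a shared COMPASS subunit, with 2.48 CPM per exonic kb in siTop3β and 2.13 in siControl. Su(var)3-9, Snr1, Su(var)3-3 and HDAC1 were between 2.45 and 2.87 CPM per exonic kb in siControl. The median of the 42 genes in siControl was 13.3 CPM per exonic kb, against 6.38 for all tested genes. These levels assume that reads fall on exons, whereas nuclear RNA holds unspliced transcripts and the handling of introns in the counting is not given in the sources used here. They are unsure for esc, which lies inside the span of Pde1c on the same strand, a gene with 1490 CPM on average in siTop3β and 1685 in siControl. Mi-2 is unsure too, since its span shares 20291 bases with Su(Tpl) on the same strand. Su(Tpl) had 358 CPM on average in siTop3β and 364 in siControl.

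PRC1 contributed 7 genes, none of them called, with log2 fold changes between -0.27 and 0.40. Pc, the chromodomain protein that binds methylated H3K27, had 23.2 and 34.4 CPM in siTop3β and 26.9 and 24.6 CPM in siControl. Sce, the RING finger ubiquitin ligase for histone H2A, had 8.71 and 10.7 CPM in siTop3β and 9.06 and 5.44 CPM in siControl, from only 19 to 40 counts a library. In both genes the groups overlapped, and the log2 fold changes were 0.16 (SE 0.22) and 0.40 (SE 0.35). The paralogs ph-p and ph-d encode Polyhomeotic proteins, which polymerize through their SAM domains, and lie side by side on chromosome X. For ph-p the levels were 40.9 and 45.9 CPM in siTop3β and 36.9 and 43.2 CPM in siControl, and for ph-d 49.3 and 45.7 CPM in siTop3β and 43.4 and 45.8 CPM in siControl. Reads shared between this pair may have been split or dropped, so each value is uncertain, but neither gene differed beyond its replicates. Psc and Su(z)2 are paralogs too, both able to compact chromatin. Psc reached 47.9 and 44.9 CPM in siTop3β, against 54.3 and 57.8 CPM in siControl, so that its siTop3β values were the lower ones (log2 fold change -0.27, SE 0.17, adjusted p = 0.714 by edgeR). Su(z)2 was at 168 and 204 CPM in siTop3β and 193 and 189.7 CPM in siControl, with overlapping groups. Scm, a SAM domain partner of PRC1, had a log2 fold change of -0.018.

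PRC2 was represented by 4 genes, with log2 fold changes between -0.011 and 0.19. E(z), the H3K27 methyltransferase, had 17.99 and 26.4 CPM in siTop3β and 21.1 and 17.7 CPM in siControl. One siTop3β library lay between the siControl libraries and the other above them, and the interval of its siTop3β level was 80.6% to 162% of siControl. esc, Su(z)12 and Pcl, the last an accessory subunit that promotes PRC2 activity, had log2 fold changes of -0.011, 0.097 and 0.11. The siTop3β level was 81.4% to 121% of siControl for esc and 87.4% to 131% for Su(z)12.

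pho encodes the zinc finger protein of PhoRC that binds DNA at Polycomb response elements. Located on chromosome 4 from 1172469 to 1181628 (dm6), it had 124 and 159.9 CPM in siTop3β, against 193 and 199.7 CPM in siControl. Both siTop3β libraries were below both siControl libraries, with means of 142 ± 25.7 CPM in siTop3β and 196 ± 5.12 CPM in siControl (SD, n = 2 each). The log2 fold change was -0.47 (SE 0.14, adjusted p = 0.126 by edgeR), and the siTop3β level was 59.1% to 88.7% of siControl before any adjustment. Sfmbt, the partner of pho in PhoRC, gave a log2 fold change of 0.054 with overlapping groups. Asx, the partner of the H2A deubiquitinase in PR-DUB, had 225 and 245 CPM in siTop3β, against 287 and 274 CPM in siControl, again with both siTop3β libraries lower (log2 fold change -0.26, adjusted p = 0.602 by edgeR).

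Histone methyltransferases of active chromatin and their partner ash2 numbered 6 genes, 3 with positive and 3 with negative log2 fold changes. trx, which gave the Trithorax group its name, methylates H3K4, and had 313 and 288 CPM in siTop3β, against 349 and 353 CPM in siControl. Set1, the main enzyme for H3K4 trimethylation in flies, had 227 and 263 CPM in siTop3β and 242 and 205.5 CPM in siControl. Both trx values were lower in siTop3β and those of Set1 overlapped, so that the log2 fold changes lay on opposite sides of 0, at -0.23 and 0.13, without either passing the test. trr, the H3K4 monomethyltransferase at enhancers, was the nearest to the threshold among genes with higher values, with a log2 fold change of 0.28 (SE 0.14, adjusted p = 0.565 by edgeR). ash1, which dimethylates H3K36, had 82.7 and 82.5 CPM in siTop3β and 96.1 and 76.1 CPM in siControl. Set2, the enzyme for H3K36 trimethylation, and ash2 had log2 fold changes of -0.084 and 0.19.

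ATP-dependent remodelers were 9 genes with log2 fold changes between -0.13 and 0.46 and a median of 0.0033. kis, a CHD family remodeler linked to transcription elongation, had the most reads of the 42 genes, 2036 and 2350.4 CPM in siTop3β and 2014 and 2219 CPM in siControl. The groups overlapped, and the interval of its siTop3β level was 83.5% to 129% of siControl. brm, the ATPase of the SWI/SNF type complexes, had 41.8 and 40.9 CPM in siTop3β and 43.4 and 47.2 CPM in siControl. Iswi, the ATPase of NURF and ACF, had 17.1 and 13.4 CPM in siTop3β and 15.1 and 16.3 CPM in siControl. The values of brm were the lower ones in siTop3β and those of Iswi overlapped, with log2 fold changes of -0.13 for brm and -0.044 for Iswi. Mi-2, the ATPase of the NuRD complex, had 114 and 116 CPM in siTop3β and 108 and 123 CPM in siControl. dom, which exchanges histone H2A variants, had 220.0 and 219 CPM in siTop3β and 208 and 258 CPM in siControl. In both genes the 2 siTop3β libraries lay between the 2 siControl libraries. Of the partners of brm, mor and osa had log2 fold changes of 0.18 and 0.0100. Snr1 had 18 and 17 counts in siTop3β and 19 and 9 in siControl, the only gene of the 42 with a library under 10 counts. Chd1 was at 0.0033.

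Heterochromatin was represented by 3 genes of low level, all with overlapping groups. The gene of HP1a (FBgn0003607, drawn under its Su(var) symbol in the plots), the reader of methylated H3K9, had 13.3 and 10.9 CPM in siTop3β and 9.06 and 12.3 CPM in siControl. Su(var)3-9, an H3K9 methyltransferase, had 5.80 and 9.35 CPM in siTop3β and 6.27 and 5.44 CPM in siControl, and shares 14.8% of its exonic bases with eIF2gamma on the same strand. egg, the H3K9 methyltransferase needed in the ovary and on chromosome 4, had 16.8 and 14.2 CPM in siTop3β and 18.3 and 12.9 CPM in siControl. None of the intervals was narrow, with 74.6% to 175% of siControl for HP1a, 73.4% to 228% for Su(var)3-9 and 67.2% to 144% for egg.

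Among 5 histone demethylase genes, Kdm4B stood lowest. Kdm4B, a JmjC demethylase of H3K9, lies on chromosome 2R from 13176553 to 13198337 (dm6), and had 86.5 and 109 CPM in siTop3β, against 133 and 138 CPM in siControl. Both siTop3β libraries were below both siControl libraries, with means of 97.98 ± 16.3 CPM in siTop3β and 135 ± 3.08 CPM in siControl (SD, n = 2 each) and a log2 fold change of -0.47 (SE 0.15, adjusted p = 0.135 by edgeR). Kdm4B shares 84.8% of its exonic bases with CG17724 and 56.6% with seq, both on the same strand, so reads of these genes may not be separable. CG17724 had 100 and 131 counts in siTop3β and 144 and 140 in siControl, and seq had 0 counts in every library. How reads in the shared exons were assigned is not given. Kdm5, which removes methyl groups from H3K4, had 103 and 92.4 CPM in siTop3β and 91.5 and 104 CPM in siControl. Utx, the H3K27 demethylase that reverses the PRC2 mark, had 71.1 and 60.6 CPM in siTop3β and 74.3 and 70.1 CPM in siControl. Kdm5 and Utx overlapped between groups, at log2 fold changes of 0.0014 and -0.13. Su(var)3-3 and Kdm4A had values of 0.48 and 0.090.

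Deacetylases and the acetyltransferase Gcn5 made up the last 5 genes. Sirt1, an NAD-dependent deacetylase, lies on chromosome 2L from 13165564 to 13169551 (dm6), and had 48.8 and 44.6 CPM in siTop3β, against 60.1 and 64.1 CPM in siControl. Its siTop3β libraries were both lower, with means of 46.7 ± 2.95 CPM in siTop3β and 62.1 ± 2.80 CPM in siControl (SD, n = 2 each) and a log2 fold change of -0.41 (SE 0.17, adjusted p = 0.379 by edgeR). Sirt1 shares 13.4% of its exonic bases with DnaJ-H on the other strand, and the use of strand in the counting is not given. HDAC4, a class IIa deacetylase that responds to signals in neurons and muscle, is on chromosome X from 13262687 to 13285632 (dm6), with 304 and 280.1 CPM in siTop3β, against 333 and 399 CPM in siControl. The groups were again apart, with means of 292 ± 17.01 CPM in siTop3β and 366 ± 46.98 CPM in siControl (SD, n = 2 each) and a log2 fold change of -0.32 (SE 0.14, adjusted p = 0.422 by edgeR). HDAC1, the deacetylase of NuRD and Sin3 complexes, had 7.84 and 7.21 CPM in siTop3β and 6.73 and 5.44 CPM in siControl. Gcn5, which acetylates H3 in the SAGA complex, had 38.6 and 48.1 CPM in siTop3β and 54.3 and 42.1 CPM in siControl. HDAC1 had the higher values in siTop3β and Gcn5 overlapped, but neither passed the test, with intervals of 70.8% to 213% of siControl for HDAC1 and 68.9% to 117% for Gcn5. HDAC6, mainly a tubulin deacetylase of the cytoplasm, had a log2 fold change of 0.20.

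**Figure D3:**
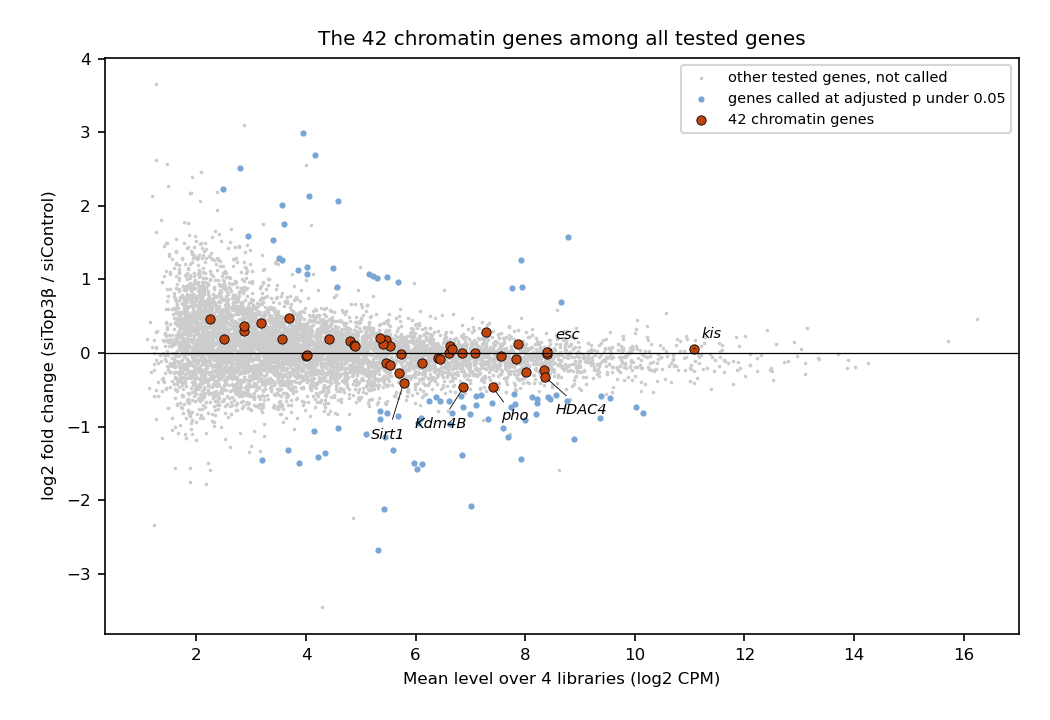
Log2 fold change (siTop3β over siControl) against mean level (log2 CPM) for all 7029 tested genes, with the 85 called genes in blue and the 42 chromatin genes in red. The 42 genes lie within -0.47 and 0.48 and none is among the called genes.

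pho and Kdm4B depended on single libraries. Without siTop3β replicate 2, pho had a log2 fold change of -0.71 (adjusted p = 0.000977 by edgeR) and Kdm4B one of -0.69 (adjusted p = 0.00441), but in that comparison 424 of 8120 tested genes (5.22%) were called. Without siTop3β replicate 1, the library that stands apart, the values were -0.29 for pho (adjusted p = 0.536 by edgeR) and -0.31 for Kdm4B (adjusted p = 0.557). For both genes the lowest of the 4 values is that of siTop3β replicate 1. Sirt1 and HDAC4 stayed between -0.49 and -0.39 and between -0.48 and -0.21 when a library was left out, never past the threshold. The summed glial markers, pros and apolpp were also lower in both siTop3β libraries, and their part in the differences of these 4 genes was not tested.

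**Figure D4:**
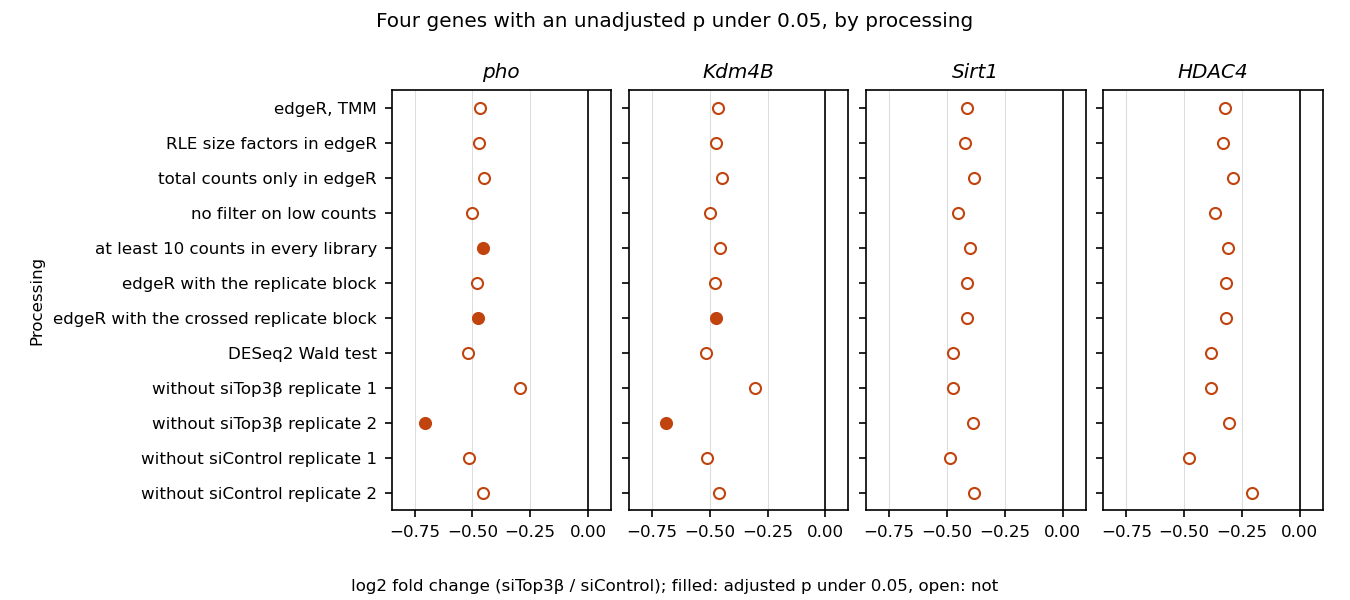
Log2 fold change (siTop3β over siControl) of pho, Kdm4B, Sirt1 and HDAC4 under each way of processing the counts, with filled points for an adjusted p under 0.05. All points lie below 0, and the filled ones belong to pho and Kdm4B.

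The log2 fold changes of the 42 genes differed by level, and so did those of all tested genes. Split at their median level, a division made after the values were seen, the 21 genes of higher level had a median log2 fold change of -0.039 and 13 negative values, and the 21 of lower level a median of 0.16 and 15 positive values. Over all tested genes, the part above the same level had a median of -0.063 with 64.1% negative, and the part below a median of 0.079 with 40.8% negative. Without siTop3β replicate 1 the medians of all tested genes were -0.0018 above and -0.0050 below that level, and those of the 42 genes -0.046 and 0.20. The rank correlation of the log2 fold change with level over the 42 genes was -0.57, and with gene span it was -0.49 (n = 42 genes, from the same 4 libraries). Over all tested genes the correlation was -0.28 with level (n = 7029) and -0.13 with span (n = 6987). Over the 42 genes, the correlations without siControl replicate 2 were -0.21 with level and -0.17 with span. They were -0.66 and -0.58 without siControl replicate 1, and -0.36 and -0.35 without siTop3β replicate 1. Without siTop3β replicate 2 they were -0.50 and -0.43.

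Other genes of the same pathways gave the same count. Of 95 tested genes among further Polycomb, COMPASS, remodeler, histone modifier and heterochromatin partners, 0 were called by edgeR and 3 (3.16%, against 9.09% of all tested genes) had a p under 0.05 before adjustment, all with higher values in siTop3β (JMJD5, wde and ADD1, named after their values were seen). Their median log2 fold change was 0.078, with 61 positive and 34 negative. Both siTop3β libraries lay above both siControl libraries for 28 of the 95 (29.5%, against 19.6% of all tested genes) and below them for 8 (8.42%, against 19.0%). The medians of the 5 lists lay between 0.017 for COMPASS partners and 0.11 for heterochromatin proteins.

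Classical target genes of Polycomb were read next. Not all of them are silent in these nuclei: in siControl, toy had a mean of 281 CPM and so had 143 CPM. Only targets with enough reads were tested, so the tested ones do not stand for silenced targets. Of 48 such genes in the table, 18 were tested and 1 was called (5.56%, against 1.21% of all tested genes): ey, the eye selector transcription factor on chromosome 4, fell in siTop3β. It had 45.9 and 26.7 CPM in siTop3β and 68.7 and 61.5 CPM in siControl (log2 fold change -0.85, SE 0.21, adjusted p = 0.0475 by edgeR). This call was lost without siTop3β replicate 2 (log2 fold change -0.55, adjusted p = 0.124 by edgeR), without siControl replicate 1 (adjusted p = 0.17), with total counts only (adjusted p = 0.234) and with DESeq2 (adjusted p = 0.23). The other 17 did not pass the test, and the median of the 18 was -0.10. Hox genes had few counts in most libraries. Ubx had 14 and 1 counts in siTop3β and 1 and 1 in siControl, abd-A had 17 and 2 in siTop3β and 3 and 3 in siControl, and Abd-B had 32 and 2 in siTop3β and 3 and 5 in siControl. Antp likewise had 27 and 4 counts in siTop3β and 3 and 7 in siControl. In each of these 4 genes the high count belongs to siTop3β replicate 1 alone. Over all 8 Hox genes the sums were 161 and 47 counts in siTop3β and 57 and 68 in siControl. lab had 14 and 2 counts in siTop3β and 4 and 2 in siControl, and pb 19 and 3 in siTop3β and 10 and 8 in siControl. Dfd had 22 and 21 counts in siTop3β and 24 and 28 in siControl, and Scr 16 and 12 in siTop3β and 9 and 14 in siControl. The 30 targets below the filter showed the same library: they summed to 366 and 53 counts in siTop3β and 86 and 82 in siControl. siTop3β replicate 1 also had the most genes with a count and the most germ cell marker counts, and the part of this in the Hox counts was not tested.

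**Figure D5:**
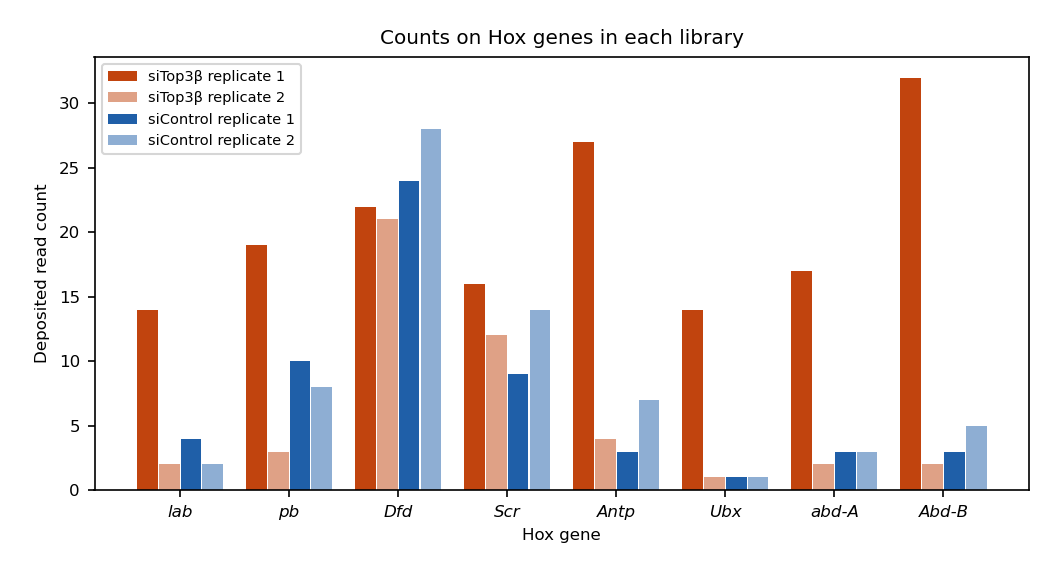
Deposited read counts (bars, from 0) on the 8 Hox genes in siTop3β (red) and siControl (blue), with replicate 1 dark and replicate 2 pale. Ubx, abd-A, Abd-B and Antp reach 14 to 32 counts in siTop3β replicate 1 and 1 to 7 in the other 3 libraries.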

How the data were processed

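Nuclear RNA from immuno-enriched photoreceptor nuclei was sequenced in 2 siTop3β and 2 siControl libraries, grouped by the treatment label. The deposited values are unnormalized counts per gene, which the authors made after Trimmomatic and STAR (dm6). The counting tool, annotation, and use of strand, introns and reads with several alignments are not given in the sources used here, and the general methods describe more replicates than the 2 per group analysed here. From these counts, edgeR 4.0.16 in R 4.3.3 (TMM, filterByExpr, robust quasi-likelihood test, Benjamini-Hochberg adjustment over 7029 genes, threshold 0.05) compared siTop3β with siControl. Standard errors and 95% intervals were derived from its F statistic. DESeq2 1.42.0 was an alternative, as were RLE and total-count scaling, filters on low counts, a replicate block and leaving out each library. Symbols, spans and exons came from Ensembl release 115 (BDGP6, the coordinates of dm6), which matched 13866 of 13929 identifiers.

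The 42 genes and all lists were chosen with earlier results of these data known. Outdated symbols in the lists of partners, targets and markers were replaced, and members and duplicates removed, after the files had been opened. Values per library are given for genes with a p under 0.05 before adjustment, for defining enzymes and subunits of each class, for paralog pairs and for genes with a library under 10 counts. Asx, trr, CG17724, seq, pros, Rh6, apolpp, w, wrapper, nrv2, Tm1, bt, Mhc, so, toy and sls were singled out after their values were seen. The same holds for the interval limits, replicate spread and level split. The test was run on simulated data, where it missed most genes changed 1.5-fold, so a gene that was not called can still differ. Floors of 3 counts and intervals cover counting error and replicate spread only.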

Additional observations from a re-analysis of the deposited data

How the results depend on the processing

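Under the alternatives run, pho and Kdm4B were the only members that passed the threshold in any setting. The whole-table count of 85 genes was 138 with at least 10 counts in every library, 51 with DESeq2 and 52 to 424 when single libraries were left out (131 without siTop3β replicate 1, 52 without siControl replicate 1). Members called numbered 1 of 41 with at least 10 counts in every library (pho, adjusted p = 0.0488 by edgeR, where 2.29% of 6020 genes were called) and 0 to 2 over the left-out libraries. Further chromatin genes called were 0 to 2 (simj and His3.3B without siTop3β replicate 2, named after their values were seen), and the median of the 42 genes ranged from -0.076 to 0.048. A group left with 1 library was assumed to vary like the other group. The share of higher genes among calls was 31.8% with edgeR, 43.3% with no filter and 15.7% with DESeq2, and 59.7% without siTop3β replicate 2; the median of all tested genes was 0.21 with no filter and 0.19 with DESeq2.

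Same-numbered libraries did not deviate together (correlation -0.12 over 7029 genes), so the numbers were not taken to pair them. With the replicate block 60 genes were called in the table, 43 lower and 17 higher, and the median of the members was 0.0097. With the crossed replicate block, added after seeing the data, 211 of 7029 genes (3.00%) and 2 of 42 members (4.76%) were called.

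Of the 42 genes, 25 changed sign under some setting and 17 under none, and 0 of the sign changes passed the threshold. With total counts only, the values were 0.0054 for Scm, 0.017 for esc, 0.024 for Mi-2, 0.0050 for egg. With at least 10 counts in every library, the values were 0.0016 for esc, 0.0080 for Mi-2. With no filter on low counts, the values were -0.027 for osa, -0.037 for Chd1, -0.041 for Kdm5. With DESeq2, the values were -0.046 for osa, -0.0020 for kis, -0.054 for Chd1, -0.059 for Kdm5. With RLE size factors, the values were -0.0045 for Chd1, -0.0069 for Kdm5. When single libraries were left out, the log2 fold changes ran from -0.19 to 0.42 for Pc, -0.017 to 0.22 for ph-p, -0.23 to 0.093 for Su(z)2, -0.13 to 0.047 for Scm, -0.16 to 0.44 for E(z), -0.18 to 0.12 for esc, -0.23 to 0.35 for Pcl, -0.098 to 0.16 for Sfmbt, -0.023 to 0.23 for Set1, -0.84 to 0.76 for ash2, -0.24 to 0.092 for ash1, -0.31 to 0.12 for Set2, -0.021 to 0.37 for mor, -0.16 to 0.15 for osa, -0.23 to 0.087 for Iswi, -0.12 to 0.071 for Mi-2, -0.096 to 0.15 for kis, -0.26 to 0.062 for dom, -0.037 to -0.00059 for Chd1, -0.049 to 0.40 for HP1a, -0.058 to 0.67 for Su(var)3-9, -0.26 to 0.24 for egg, -0.062 to 0.20 for Kdm4A, -0.11 to 0.073 for Kdm5, -0.37 to 0.020 for Gcn5.

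Depth limits the genes with few reads most, such as Snr1, ash2, Su(var)3-9 and HDAC1, whose intervals crossed 2-fold. Whether introns were counted is not given, and the effect on levels was not tested.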
